A study of Mus musculus with 4 samples.

Results

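The Bcl11, Maf and Sall genes encode zinc finger and basic leucine zipper transcription factors that are used in neurons of the dorsal horn of the spinal cord and in the progenitors that give rise to them. The 8 genes described here, *Bcl11a*, *Bcl11b*, *Maf*, *Mafa*, *Sall1*, *Sall2*, *Sall3* and *Sall4*, were taken by symbol from a table of 24421 genes, and all 8 were found. Each had a mean level of at least 1 RPKM (read density over the exons, scaled to library size) in one genotype or both, as did 12046 genes in all, which are the genes tested. BCL11A and BCL11B act mainly as repressors and bind subunits of the NuRD (nucleosome remodelling and deacetylase) and BAF (SWI/SNF chromatin remodelling) complexes, and the SALL proteins recruit NuRD through a short motif at their N-terminus. Large Maf proteins such as MAF and MAFA carry an activation domain and bind DNA as dimers through a leucine zipper, while the small Maf proteins lack that domain and pair with CNC and BACH factors. In the spinal cord BCL11A is known for its role in the wiring of dorsal horn neurons, MAF for its role in deep dorsal horn neurons and in touch receptors, and SALL4 is best known from pluripotent cells and early embryos.

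RNA was sequenced from mouse neural tube at E11.5, in mid-gestation, to compare *Prdm13*GFP/+ heterozygotes (Het) with *Prdm13*GFP/GFP homozygous mutants (Homo). PRDM13 is a repressor of the dorsal neural tube that acts beside basic helix-loop-helix factors. Both genotypes carry the GFP allele, in which GFP sequence at the *Prdm13* locus stops the protein from being made and labels cells that transcribe the gene, and GFP+ cells were sorted from each, so no wild-type library enters the comparison. The RNA of 7 Het embryos made 1 pool and that of 9 Homo embryos another, and 2 libraries were made from each pool. Both libraries of a pool are technical replicates of it, and every SD and p-value below measures the spread of library preparation and sequencing and holds no variation between embryos. Reads recovered from the RPKM values summed to 11670425 and 18567230 in the Het libraries and to 16575707 and 14019588 in the Homo libraries. Levels are from sorted populations, in which fewer cells of a type and less RNA per cell cannot be told apart.

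The sorted cells carried markers of neural progenitors and of neurons in both genotypes. Of 15 neural progenitor genes and 15 pan-neuronal genes all were above the filter, led by *Vim* (932 and 932 RPKM in Het, 947 and 986 in Homo) and *Tubb3* (1017 and 1062 RPKM in Het, 1265 and 1372 in Homo). *Prdm13* itself was read at 114 and 127 RPKM in Het and at 310 and 324 RPKM in Homo, a log2 fold change of 1.40 ± 0.0613 (SE, n = 2 libraries per genotype, limma adjusted p = 3.63e-05). The mutant allele is still transcribed, so this level does not check the genotype. Of the dorsal inhibitory genes (*Pax2*, *Lhx5*, *Gad1* and others) 10 of 10 fell, beside 2.67% of all genes tested, and of the dorsal excitatory genes (*Tlx3*, *Lmx1b*, *Slc17a6* and others) 7 of 7 rose, beside 3.65%, with median log2 fold changes of -2.47 and 2.11. *Tlx1*, 1 of the 7, reached the filter of 1 RPKM in Homo only (Het mean 0.925 RPKM). These differences in markers of neuron type moved with every difference given below, and their part in them was not tested.

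Among the 8 factors the mutant cells had more *Maf* RNA and less *Mafa*, *Sall3* and *Sall4*, while *Bcl11a*, *Bcl11b*, *Sall1* and *Sall2* differed by less than 1.5-fold. A gene was called where limma, fitted over all genes tested, gave a difference of 1.5-fold or more (0.58 on the log2 scale) and its adjusted p was below 0.05. By this rule 1 of the 8 factors rose and 3 fell, against 3.65% and 2.67% of all genes tested (6.33% in either direction). Of these calls, only that of *Sall4* held with each library left out in turn. At the adjusted p alone 7 of 8 differed, against 19.7% of genes, with 2 higher and 5 lower, against 9.76% and 9.95%. This count rests on all 4 libraries: 3 of 8 passed the adjusted p without either Het library and 2 of 8 without either Homo library, where 619 to 1029 genes passed in place of 2375 (5.13 to 8.52% of those tested). Only *Sall3* and *Sall4* passed it with each library left out in turn. Without a mean trend in the variance 4 of 8 passed it, against 13.6% of genes tested. Without a filter on RPKM 0 of 8 passed either rule, where 0.209% of 24421 genes passed the adjusted p alone. The libraries of the 2 genotypes did not overlap for any of the 8, 2 of them higher and 6 lower in Homo, which was also so for 62.1% of genes tested (31.7% higher, 30.3% lower). The median log2 fold change of the 8 was -0.35, beside 0.010 over all genes tested. Fold changes are on the log2(RPKM + 0.1) scale, which understates changes of the lowest genes.

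**Figure D1:**
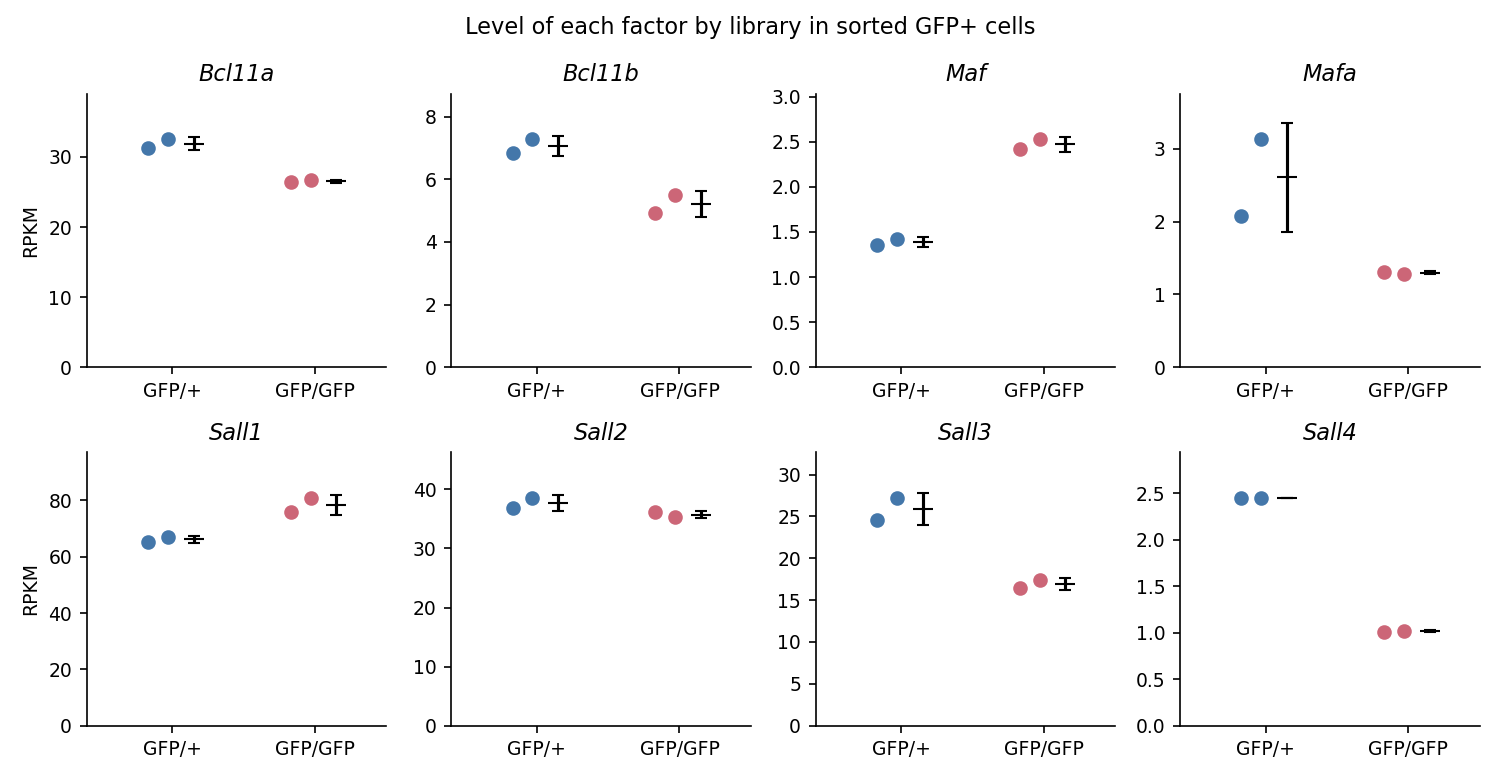
Level of each factor in RPKM (vertical axes, from 0, 1 scale per gene) in the 2 Prdm13GFP/+ and the 2 Prdm13GFP/GFP libraries (points), with the mean and SD of each genotype beside them. The points of the genotypes are apart in every panel, by the widest margin relative to level in Sall4 and by the narrowest in Sall2.

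*Bcl11a* (gene ID 14025, GRCm38 chr11:24076564-24173558), whose product is a zinc finger repressor also called CTIP1, was the more abundant of its pair. Its level was 31.3 and 32.5 RPKM in the Het libraries and 26.4 and 26.7 RPKM in the Homo libraries. Both Homo libraries lay below both Het libraries. The means were 31.9 ± 0.907 and 26.5 ± 0.212 RPKM (SD, n = 2), a log2 fold change of -0.26 ± 0.0508 (SE, limma adjusted p = 0.0152) with a 95% interval from -0.39 to -0.14. The whole interval is on the side of less RNA in Homo, and all of it is smaller than a 1.5-fold change.

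*Bcl11b* (gene ID 58208, chr12:107910403-108004145), the paralogue known as CTIP2 from corticospinal neurons and T cells, was also lower in Homo, from a lower level. It stood at 6.84 and 7.29 RPKM in Het and at 4.92 and 5.51 RPKM in Homo. Again the genotypes were apart, though the Homo libraries differed from each other by more than those of *Bcl11a*. The log2 fold change was -0.43 ± 0.0864 (SE, limma adjusted p = 0.0176), with a 95% interval from -0.64 to -0.22 that reaches past 1.5-fold. The ratio of *Bcl11a* to *Bcl11b* RPKM was 4.57 and 4.47 in Het and 5.36 and 4.84 in Homo, so *Bcl11a* made up 81.7 to 84.3% of the summed RPKM of the pair in every library. Neither gene kept an adjusted p under 0.05 when any 1 library was left out (0.0532 to 0.0975 for *Bcl11a*, 0.0697 to 0.125 for *Bcl11b*).

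The sites of basic helix-loop-helix factors are E-boxes (CANNTG), and windows of 250 bases before RefSeq transcript starts of 4 of the 8 genes were read for this motif. Such windows do not cover distal enhancers. CANNTG reads as the same pattern on both strands, and it occurs in 66.2% of all 32851 such windows in RefSeq (GRCm38.p6). The 1 window of *Bcl11a* held 1 match and the 1 window of *Bcl11b* held 0. Both windows lie before alternative starts inside the spans given above, downstream of the outermost start of each gene, and 188 of the 250 bases at *Bcl11b* lie in an annotated exon. The part of the *Bcl11a* window outside annotated exons (chr11:24080445-24080669, plus strand) is shown as an example from a gene whose RNA was lower in Homo at the adjusted p alone, with the match in capitals.
Bcl11a, before an internal start: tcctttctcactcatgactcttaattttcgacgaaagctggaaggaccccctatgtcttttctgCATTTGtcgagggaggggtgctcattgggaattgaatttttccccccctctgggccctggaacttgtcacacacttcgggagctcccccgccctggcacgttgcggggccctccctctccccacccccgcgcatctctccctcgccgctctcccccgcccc
This stretch of 225 bases holds 12 CG dinucleotides. A match is a description of these letters only, and no binding was measured here. *Maf*, *Mafa*, *Sall3* and *Sall4* are named without a sequence.

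Genes tied to BCL11 proteins by earlier work were read from the same fit. Of 3 genes reported elsewhere to be regulated by BCL11A in neurons 2 were tested, and 1 rose and 1 fell, beside 3.65% and 2.67% of all genes tested. *Frzb*, which encodes a secreted Wnt antagonist, rose from 9.20 and 9.81 RPKM in Het to 40.9 and 39.9 RPKM in Homo (log2 fold change 2.08 ± 0.0579, limma adjusted p = 7.18e-06). *Sema3c*, a secreted guidance cue, fell from 4.03 and 3.41 RPKM to 2.15 and 2.36 RPKM (log2 fold change -0.70 ± 0.127, adjusted p = 0.0127). *Bcl6* was under the filter, at 0.447 and 0.449 RPKM in Het and 0.337 and 0.178 RPKM in Homo.

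Subunits of NuRD and BAF, the complexes that BCL11 and SALL proteins bind, were also read. By limma 0 of the 13 NuRD genes above the filter were called, against 6.33% of all genes tested (0 also by voom on recovered reads), and their median log2 fold change was -0.025. At an unadjusted p under 0.05 there were 3 of 13, against 34.1% of all genes tested. Only *Gatad2b*, a scaffold subunit (22.8 and 24.6 RPKM in Het, 18.7 and 18.1 in Homo, log2 fold change -0.36, adjusted p = 0.00891), and *Chd3*, a remodelling ATPase (log2 fold change -0.19, adjusted p = 0.0366), were lower at the adjusted p alone. The most abundant subunits, *Hdac2* (220 and 208 RPKM in Het, 213 and 210 in Homo), *Chd4*, *Mbd3* and *Rbbp4*, had log2 fold changes between -0.15 and 0.058, none past the threshold. *Chd5* was under the filter.

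Of the 21 BAF genes 1 rose and 1 fell, against 3.65% and 2.67% of all genes tested, with a median log2 fold change of 0.0094. *Smarcd3*, which encodes the BAF60C subunit, rose from 27.5 and 27.9 RPKM in Het to 40.8 and 43.4 RPKM in Homo (log2 fold change 0.60 ± 0.0536, adjusted p = 0.000792). *Dpf3*, the BAF45C subunit, fell from 5.31 and 5.77 RPKM to 3.33 and 3.59 RPKM (log2 fold change -0.67 ± 0.0924, adjusted p = 0.00478). Both encode accessory subunits with alternative paralogues. The ATPase gene *Smarca4* stood at 133 and 138 RPKM in Het and 125 and 131 RPKM in Homo and was not called. *Smarce1*, the most abundant BAF gene, was read at 148 and 142 RPKM in Het and at 150 and 147 RPKM in Homo and was not called, and *Smarcb1* was higher at the adjusted p alone (log2 fold change 0.28, adjusted p = 0.0150). The FOG factors, which recruit NuRD through a motif like that of the SALL proteins, were also read: *Zfpm1* rose from 5.77 and 6.61 RPKM to 11.1 and 11.4 RPKM (log2 fold change 0.85 ± 0.0829, adjusted p = 0.00121). *Zfpm2* was near the filter, with 0.955 and 1.45 RPKM in Het and 0.643 and 0.720 RPKM in Homo, and was not called by limma (adjusted p = 0.135), though it was called lower by voom on recovered reads. It reached the filter in Het only, the genotype in which it is higher (means of 1.20 RPKM in Het and 0.682 RPKM in Homo). By limma 1 of the 2 FOG genes rose, beside 3.65% of all genes tested.

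*Maf* (gene ID 17132, chr8:115703253-115706894), which encodes the large Maf protein c-MAF, was the 1 gene of the 8 that rose past the fold. Its level was 1.35 and 1.42 RPKM in the Het libraries, from 57 and 95 reads. In the Homo libraries it was 2.41 and 2.53 RPKM, from 143 and 126 reads. The genotypes did not overlap, nor did the 95% Poisson intervals of the counts (up to 1.75 RPKM in Het, from 2.04 RPKM in Homo), which cover counting error only. The means of 1.39 ± 0.0503 and 2.47 ± 0.0809 RPKM (SD, n = 2) differed 1.78-fold, with a log2 fold change of 0.79 ± 0.141 (SE, limma adjusted p = 0.0119) and a 95% interval from 0.45 to 1.13. The adjusted p was above 0.05 without Het library 1 (0.0513), Homo library 1 (0.0643) or Homo library 2 (0.0864), and with a pseudocount of 1 the log2 fold change was 0.54, under the fold.

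*Mafa* (gene ID 378435, chr15:75745501-75748321), known as an activator of the insulin gene in beta cells and as a marker of touch receptor neurons, went the other way. It was read at 2.08 and 3.13 RPKM in Het, from 26 and 62 reads, and at 1.31 and 1.29 RPKM in Homo, from 23 and 19 reads. Both Homo libraries were below both Het libraries, but Het library 1 was closer to them than to Het library 2 in RPKM, and its 95% Poisson interval (1.36 to 3.05 RPKM) overlapped those of both Homo libraries (up to 1.97 and 2.01 RPKM). The log2 fold change was -0.93 ± 0.210 (SE, limma adjusted p = 0.0268), with a 95% interval from -1.43 to -0.42, and the Het mean was 2.01 times the Homo mean. Without Het library 2 it was -0.64 (adjusted p = 0.0819), and the call was also lost without either Homo library (adjusted p = 0.114 and 0.155) and without a mean trend in the variance (adjusted p = 0.0588).

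Set beside each other, *Maf* and *Mafa* summed to 3.43 and 4.56 RPKM in Het and to 3.72 and 3.82 RPKM in Homo. *Maf* made up 39.4 and 31.2% of this sum in Het and 64.8 and 66.3% in Homo, which is given as a description with no test. The ratio of *Maf* to *Mafa* RPKM went from 0.650 and 0.454 in Het to 1.84 and 1.97 in Homo, so the order of these 2 genes by RPKM was reversed in the mutant libraries. In Het library 1 their 95% Poisson intervals overlapped (1.02 to 1.75 RPKM for *Maf*, 1.36 to 3.05 RPKM for *Mafa*), so counts do not settle the order there. In the other libraries the intervals were apart.

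Among 10 tested genes for dimer partners of Maf proteins, 1 rose and 1 fell, again beside 3.65% and 2.67% of all genes tested, with a median log2 fold change of 0.038. *Nfe2l3*, a CNC factor, rose from 0.849 and 0.815 RPKM in Het to 1.52 and 1.58 RPKM in Homo (log2 fold change 0.83 ± 0.199, adjusted p = 0.0325). It reached the filter of 1 RPKM in Homo only, the genotype in which it is higher. *Fos*, an immediate early gene, fell from 6.89 and 7.09 RPKM to 4.14 and 5.10 RPKM (log2 fold change -0.59 ± 0.109, adjusted p = 0.0129). *Bach2*, a repressor of the same sites, was lower at the adjusted p alone (20.8 and 21.2 RPKM in Het, 16.7 and 16.1 in Homo, log2 fold change -0.35, adjusted p = 0.00661). The small Maf genes *Mafg*, *Mafk* and *Maff* were not called: *Mafg* stood at 14.8 and 15.6 RPKM in Het and 15.3 and 18.2 RPKM in Homo, and *Mafk* and *Maff* had log2 fold changes of 0.095 and 0.20. *Nfe2l1*, a CNC factor and the most abundant gene of the list, stood at 39.3 and 39.5 RPKM in Het and at 39.5 and 42.0 RPKM in Homo and was not called. *Nrl*, the photoreceptor member of the family, was under the filter, with at most 3 reads in any library.

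**Figure D2:**
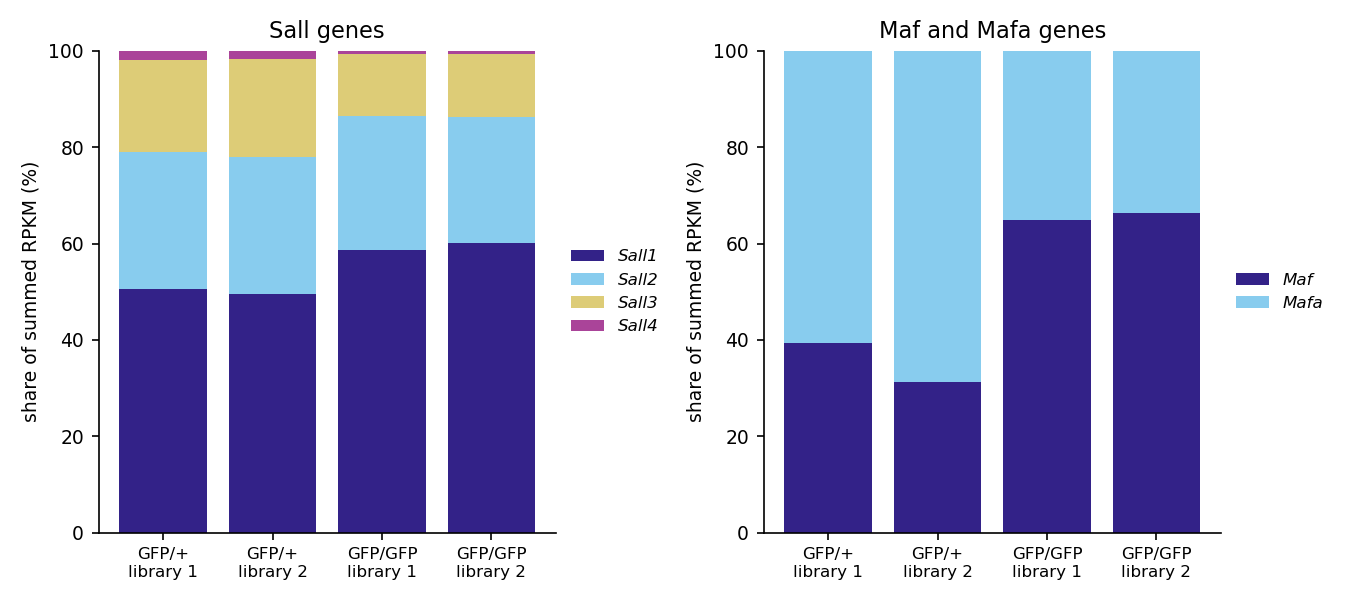
Share of each gene in the summed RPKM of its family (vertical axis, percent) in each of the 4 libraries, for the 4 Sall genes (left) and for Maf and Mafa (right). The Sall1 segment grows from 50.6 and 49.5% in Prdm13GFP/+ to 58.6 and 60.1% in Prdm13GFP/GFP, and the Maf segment from 39.4 and 31.2% to 64.8 and 66.3%.

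*Sall1* (gene ID 58198, chr8:89027242-89044162), the spalt-like factor mutated in Townes-Brocks syndrome, had the highest level of the 8 in both genotypes. It was read at 65.3 and 67.1 RPKM in Het and at 75.8 and 81.0 RPKM in Homo. The Homo libraries were both higher and more spread than the Het libraries. The log2 fold change was 0.24 ± 0.0517 (SE, limma adjusted p = 0.0214), with a 95% interval from 0.12 to 0.37 that stays under 1.5-fold. With any 1 library left out its adjusted p was between 0.0551 and 0.140.

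*Sall2* (gene ID 50524, chr14:52311177-52328670), the most divergent of the 4 paralogues, showed the smallest difference. Its level was 36.8 and 38.6 RPKM in Het and 36.1 and 35.4 RPKM in Homo. The Homo libraries were the lower ones, by a margin smaller than the gap between the 2 Het libraries. The log2 fold change was -0.076 ± 0.0509 (SE, limma adjusted p = 0.341). Its 95% interval ran from -0.20 to 0.046, within 1.5-fold in both directions for these 2 pools, with no variation between embryos in it.

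*Sall3* (gene ID 20689, chr18:80966989-80987021), known from the development of cranial nerves and palate, fell. It was read at 24.6 and 27.3 RPKM in Het and at 16.5 and 17.5 RPKM in Homo, from at least 1645 reads in each library. Both Homo libraries were well below both Het libraries. The means of 25.9 ± 1.90 and 17.0 ± 0.697 RPKM (SD, n = 2) differed 1.53-fold, with a log2 fold change of -0.61 ± 0.0690 (SE, limma adjusted p = 0.00219) and a 95% interval from -0.77 to -0.44. This fold lies close to the limit of 1.5, and without Het library 2 (-0.53) or Homo library 1 (-0.57) or with a pseudocount of 1 (-0.58) it was under it, while the adjusted p was 0.0332 or less in these 3 settings.

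*Sall4* (gene ID 99377, chr2:168748332-168767201), a regulator of pluripotency whose RNA declines as embryos develop, fell the most of the 8 with all libraries used. Without Het library 1 the log2 fold change was -1.21 for *Mafa* and -1.20 for *Sall4*. The level of *Sall4* was 2.45 RPKM in both Het libraries, from 144 and 228 reads. In the Homo libraries it was 1.01 and 1.02 RPKM, from 83 and 71 reads. The 95% Poisson intervals of the Het libraries began at 2.07 and 2.14 RPKM, above those of the Homo libraries, which ended at 1.25 and 1.29 RPKM. The Het mean was 2.42 times the Homo mean, and the log2 fold change was -1.20 ± 0.155 (SE, limma adjusted p = 0.00380) with a 95% interval from -1.57 to -0.82. It was called with each library left out in turn (log2 fold change -1.21 to -1.18), but not without a filter on RPKM (limma adjusted p = 0.0665).

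**Figure D3:**
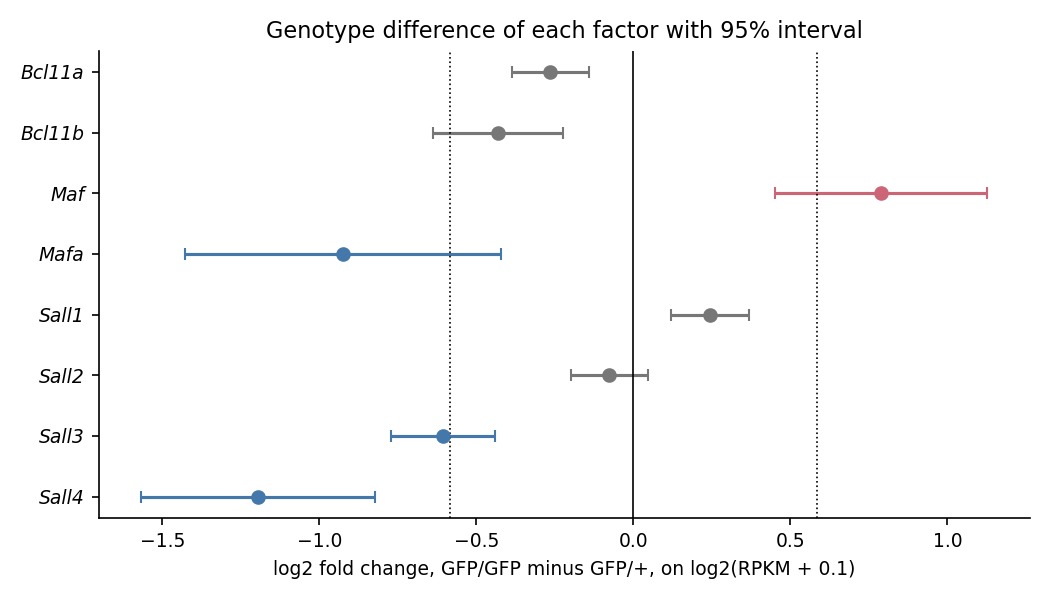
Log2 fold change of Prdm13GFP/GFP against Prdm13GFP/+ for each of the 8 factors (horizontal axis), with the 95% interval of the limma fit as bars, dotted lines at a 1.5-fold change and colour for the genes called higher (red), called lower (blue) or not called (grey). Maf is the only one called higher, at 0.79, and the interval of Sall2 alone includes 0.

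The sum of the 4 Sall genes was nearly the same in both genotypes, at 129 and 135 RPKM in Het and at 129 and 135 RPKM in Homo. Within this sum *Sall1* went from 50.6 and 49.5% in Het to 58.6 and 60.1% in Homo. *Sall3* went from 19.0 and 20.1% to 12.7 and 12.9%, and *Sall4* from 1.90 and 1.81% to 0.778 and 0.759%. *Sall2* held between 26.2 and 28.5% in every library. The RPKM ratio of *Sall3* to *Sall1* was 0.376 and 0.406 in Het and 0.217 and 0.215 in Homo.

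Windows before the starts of *Sall1* and *Sall2* are shown beside that of *Bcl11a*, from a gene whose RNA was higher in Homo at the adjusted p alone and from a gene that did not pass it. None of the 3 genes with a sequence shown was called. The outermost *Sall1* window (GRCm38.p6 chr8:89044163-89044412, minus strand) held 0 CANNTG matches, as did both other *Sall1* windows in RefSeq. Of the 2 *Sall2* windows, the one before the outermost start (chr14:52328671-52328920, minus strand) held 1 match, which lies in the 92 bases within an annotated exon, and is not shown. The one before an internal start (chr14:52316324-52316573, minus strand) held 2 matches, in capitals.
Sall1, before the outermost start: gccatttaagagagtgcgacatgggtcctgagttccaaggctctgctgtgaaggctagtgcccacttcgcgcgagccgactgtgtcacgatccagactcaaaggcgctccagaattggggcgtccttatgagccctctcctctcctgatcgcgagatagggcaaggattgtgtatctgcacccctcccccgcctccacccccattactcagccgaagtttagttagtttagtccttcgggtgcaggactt
Sall2, before an internal start: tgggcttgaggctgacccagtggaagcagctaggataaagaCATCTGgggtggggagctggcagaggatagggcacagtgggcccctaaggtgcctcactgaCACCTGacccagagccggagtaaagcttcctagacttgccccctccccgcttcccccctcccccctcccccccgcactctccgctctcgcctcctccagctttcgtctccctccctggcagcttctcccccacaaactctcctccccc
These stretches hold 13 and 6 CG dinucleotides, beside a median of 6 over all promoter windows.

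In order of level, the Het cells had *Sall1* first, then *Sall2*, *Bcl11a*, *Sall3* and *Bcl11b*, each apart from the next in both libraries. *Mafa* and *Sall4* followed with overlapping ranges, and *Maf* was lowest. In Homo the first 5 kept this order, and *Maf* stood above *Mafa* and *Sall4*, with no overlap between neighbours. Among all genes tested the mean of *Sall1* lay at the percentile 90.8 in Het and 92.3 in Homo, that of *Bcl11b* at 33.3 and 26.8, and that of *Sall4* at 13.7 and 2.15. The 4 called genes therefore include 1 gene of moderate level, *Sall3*, and 3 of the lowest levels.

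*Sall4* was set beside 11 other genes of early embryonic progenitors, of which 9 were above the filter. By limma 0 of the 9 were called, against 6.33% of all genes tested (0 also by voom on recovered reads, and 5 at an unadjusted p under 0.05, against 34.1%). Of the 9, 8 had a negative log2 fold change and 1 a positive one, beside 47.6% negative over all genes tested, with a median of -0.10. *Hmga2*, a chromatin protein of early progenitors, was lower at the adjusted p alone (17.4 and 17.4 RPKM in Het, 12.7 and 13.4 in Homo, log2 fold change -0.41, adjusted p = 0.00524). The RNA-binding protein genes *Lin28a* and *Lin28b* had log2 fold changes of 0.21 (adjusted p = 0.140) and -0.32 (adjusted p = 0.0610), and *Trim71*, with the lowest value of the 9, one of -0.47 (adjusted p = 0.0982). *Igf2bp2*, the most abundant, was read at 59.7 and 57.2 RPKM in Het and at 54.6 and 54.5 RPKM in Homo and was not called. *Dppa4* is listed at 0 in all 4 libraries.

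General markers of state moved in both directions beside the 8 factors. Of the 15 neural progenitor genes *Id3* rose (log2 fold change 0.65, adjusted p = 0.000482) and *Sox1* fell (-0.68, adjusted p = 0.00118), 2 of 15 beside 6.33% of all genes tested, with a median of 0.044. Of the 15 pan-neuronal genes *Nefl*, *Nefm*, *Gap43* and *Stmn2* rose by 1.51, 1.21, 1.20 and 0.61 on the log2 scale and *Snap25* fell by 0.63, 5 of 15 beside the same 6.33%, with a median of 0.23. The summed RPKM of the progenitor list was 2662 and 2690 in Het and 2689 and 2794 in Homo, and that of the pan-neuronal list 2195 and 2249 in Het and 2761 and 2881 in Homo. The part of these shifts in the levels of the 8 factors was not tested.

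**Figure D4:**
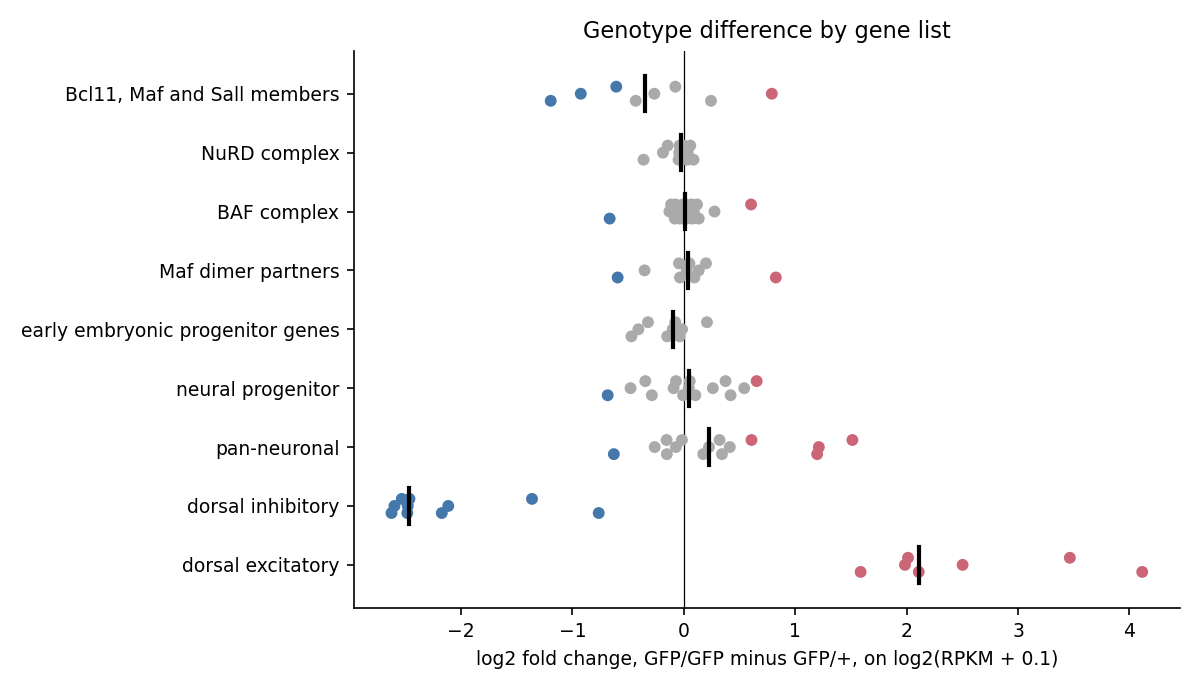
Log2 fold change of Prdm13GFP/GFP against Prdm13GFP/+ (horizontal axis) of each tested gene (points; red called higher, blue called lower, grey not called) in 9 gene lists, with the median of each list as a black bar. The NuRD and BAF genes gather around 0, the dorsal inhibitory and excitatory lists lie wholly to the left and right, and the 8 factors spread from -1.20 to 0.79.

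Cell types outside the neural tube also use these factors: *Maf* and *Mafa* are expressed by sensory neurons of the dorsal root ganglion, and *Maf* and *Sall1* by macrophages or microglia. Of 11 dorsal root ganglion genes 5 were above the filter, of which *Ntrk3* and *Th* rose and *Ret* fell, beside 3.65% and 2.67% of all genes tested. *Ret* reached the filter in Het only, the genotype in which it is higher (means of 2.33 RPKM in Het and 0.803 RPKM in Homo). The summed level of all 11 was 25.3 and 27.0 RPKM in Het and 28.5 and 27.5 RPKM in Homo. *Ntrk2* was the most abundant of them (12.2 and 12.6 RPKM in Het, 9.10 and 8.87 in Homo). *Isl2* and *Prph* were below 1 RPKM in every library, *Avil* below 0.3, and *Scn10a*, *Runx1* and *Runx3* below 0.1. The higher sum in Homo came mainly from *Ntrk3* and *Th*, while *Ntrk2* and *Ret* were lower. The libraries are of GFP+ cells sorted from neural tube, and the purity of the sort was not measured here. The part of these genes in the levels of *Maf* and *Mafa* was not tested.

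All 11 microglia and macrophage genes were under the filter, and they summed to 0.639 and 0.602 RPKM in Het and to 0.539 and 0.331 RPKM in Homo, with *C1qa* the most abundant. Of 7 neural crest and glial genes 4 were tested and *Foxd3* fell (log2 fold change -1.41, adjusted p = 0.000527), 1 of 4 beside 2.67% of all genes tested, while *Sox10* was between 0.255 and 0.781 RPKM. This list summed to 163 and 168 RPKM in Het and 155 and 148 RPKM in Homo, most of it from *Tfap2b* and *Ednrb*, which dorsal neural tube also expresses. The 12 mesenchymal genes summed to at most 6.18 RPKM and the 8 endothelial genes to at most 4.17 RPKM, led by *Col1a2* and *Cldn5*, and in each list the 1 gene tested was not called by limma or voom (0 at an unadjusted p under 0.05). The 10 erythroid genes summed to between 47.3 and 49.9 RPKM, led by the embryonic globin gene *Hbb-y*, with 0 of 3 tested genes called by limma or voom (0 at an unadjusted p under 0.05) and *Hba-a1*, *Hba-a2*, *Hbb-bt* and *Hbb-bs* listed at 0 in all libraries. Of all genes tested 6.33% were called by limma and 34.1% had an unadjusted p under 0.05. With so few genes tested, a count of 0 does not set these 3 lists apart from that.

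The genes whose 4 values were most like those of a factor were found as the nearest by Euclidean distance on log2(RPKM + 0.1) centred on each gene's mean, over the 4 libraries. For *Maf* these were *Ptchd2*, *Meis3* and *Rgs3*, with *Meis3* at 107 and 111 RPKM in Het and 182 and 190 RPKM in Homo. *Sall3* was nearest to *Ago3*, *Pou3f4* and *Mab21l1*, and *Pou3f4* stood at 38.6 and 42.3 RPKM in Het and 26.1 and 27.9 RPKM in Homo. *Sall4* was nearest to *Hpca*, *Il1f9* and *Slc7a5*, of which *Slc7a5*, an amino acid transporter gene, was read at 32.8 and 32.6 RPKM in Het and at 13.5 and 13.3 RPKM in Homo. *Mafa* had no close neighbour by comparison: its nearest, *Nfix*, lay at a distance of 0.189, against 0.0181 for the nearest to *Maf* and 0.0276 for the nearest to *Sall3*, and was followed by *Irx4* and *Hist1h4i*. The nearest genes were *Dennd1a*, *Bicd2* and *Herc2* for *Bcl11a*, *Stard4*, *Cbx7* and *Foxp4* for *Bcl11b*, *Atp5e*, *Pygb* and *Myo7a* for *Sall1*, and *Zfp46*, *Rnf144a* and *Slc6a6* for *Sall2*. With 4 libraries of 2 pools, such likeness describes the genotype difference and the gaps between libraries only.

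The direction of all 8 factors was the same under each alternative tried, as the plot of alternatives shows. Most alternatives could not have changed it, since the libraries of the genotypes did not overlap for any of the 8. Leaving out a library, or changing the pseudocount, filter, variance trend or block, then keeps the sign. The annotation places antisense or overlapping transcripts at *Bcl11a*, *Maf* and *Sall4*, and the strand setting of the counting is not given in the sources used here, so reads of these genes and of such transcripts cannot be told apart.

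**Figure D5:**
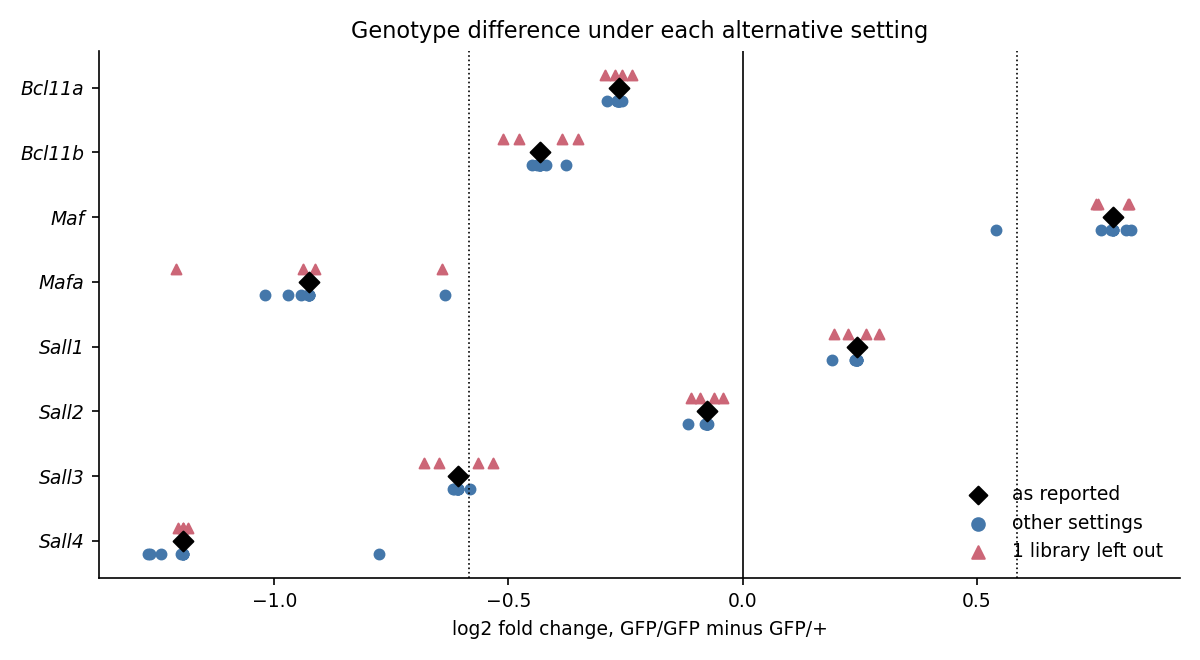
Log2 fold change of each factor (horizontal axis) as reported (black diamonds), with 1 library left out (red triangles) and under the other settings (blue circles), with dotted lines at a 1.5-fold change. No point crosses 0, the points of Mafa spread the most, from -1.21 to -0.63, and those of Sall3 lie on both sides of the 1.5-fold line.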

How the data were processed

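RNA-seq of sorted GFP+ cells from E11.5 neural tube was analysed in 4 libraries, 2 of 1 pool of 7 *Prdm13*GFP/+ embryos and 2 of 1 pool of 9 *Prdm13*GFP/GFP embryos, with groups taken from the labels. The authors aligned reads to mm10 with TopHat2 2.1.0, counted them on RefSeq genes, normalized by TMM in edgeR 3.6.8 and deposited RPKM for 24421 genes, which were used as deposited. The 8 genes and the gene lists were chosen with earlier results of these data known. The test was limma 3.58.1 (R 4.3.3; lmFit, then eBayes with a mean trend) on log2(RPKM + 0.1), two-sided, for the 12046 genes whose mean reached 1 RPKM in one genotype or both. P-values were adjusted over all of them by Benjamini-Hochberg, and a call needed a difference of 1.5-fold or more beside an adjusted p below 0.05. Exact permutation of 2 against 2 libraries cannot give a p under 0.333 and was not used.

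Reads were solved from the RPKM steps. They came out whole for 19198 of 19200 genes above 0, taken as within 0.002 of a whole read plus the rounding of the deposited value (0.0175 reads at most in all), and 70.9% of solved exon lengths lay within 5% of the annotated ones, so a gene's count can be off by a whole factor where its 4 counts share a divisor. The effective sizes solved were 0.976 to 0.992 times the sums. A count of 0 allows up to 3 reads, and counting intervals (95%, exact Poisson) cover counting error only. On simulated RPKM of 6000 genes, reads were exact for 98.9% of genes with 20 or more reads. On simulated Homo and Het libraries (11963 genes) limma called 85 of 94 genes changed 2-fold, 96 of 97 changed 4-fold and 38 unchanged genes, 3 of which had 20 or more reads. The simulation gave every gene the same dispersion, changed only 191 of the genes tested and held no change under 2-fold. Its counts therefore do not carry over to smaller changes such as those of *Maf* and *Sall3*.

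The genes named are the 8 factors, *Prdm13*, small Maf genes, *Nrl*, called genes and up to 4 of the most abundant genes of each list, and the 3 nearest genes of each factor. List genes past the adjusted p alone, genes under the filter, *Lin28a*, *Lin28b* and *Trim71* were named after their values were seen. Coordinates and promoter windows are RefSeq on GRCm38, read against exons of GENCODE vM21. Alternatives were pseudocounts of 1 and 0.01, no filter, a filter on both libraries, median ratio and quantile scaling, no variance trend, voom on recovered reads, a replicate block, no fold minimum, and each library left out. Tables and plots were made with Python 3.11.15, numpy 2.4.6, pandas 2.3.3, scipy 1.17.1 and matplotlib 3.10.9. The results of some genes are not reported here, and these were left out of the lists and sums.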

Additional observations from a re-analysis of the deposited data

How the results depend on the processing

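Of 104 values of the 8 factors under alternatives, 89 kept their direction and side of the threshold, 15 lost the call and 0 changed direction. With libraries that do not overlap between genotypes, most of these alternatives could not change a direction, so the count of 0 is no check of it. All 15 were values of *Maf*, *Mafa*, *Sall3* or *Sall4*, since *Bcl11a*, *Bcl11b*, *Sall1* and *Sall2* had no call to lose. Without a filter on RPKM, limma tested 24421 genes and called 44, and 0 of the 8 factors (51 genes at the adjusted p alone, 4400 at an unadjusted p under 0.05). The log2 fold changes were then the same, at 0.79 for *Maf*, -0.93 for *Mafa*, -0.61 for *Sall3* and -1.20 for *Sall4*, with adjusted p of 0.0933, 0.276, 0.111 and 0.0665. More genes, most of them near 0, were tested in that setting. With a pseudocount of 1, 555 genes and 2 of the 8 were called, beside 762 genes as reported. *Maf* (0.54) and *Sall3* (-0.58) were then under the fold. Without a variance trend *Mafa* (-0.93) was not called. At the adjusted p alone 2375 genes and 7 of the 8 passed.

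With 1 library left out, in which the lone library is assumed to vary like the other pair, 470 (without Homo library 2) to 687 genes and 1 (without Homo library 1) to 3 of the 8 were called, and 2 without Het library 2 or Homo library 2. The log2 fold changes ranged from -0.29 to -0.24 for *Bcl11a*, -0.51 to -0.35 for *Bcl11b*, 0.76 to 0.82 for *Maf*, -1.21 to -0.64 for *Mafa*, 0.20 to 0.29 for *Sall1*, -0.11 to -0.042 for *Sall2*, -0.68 to -0.53 for *Sall3* and -1.21 to -1.18 for *Sall4*. With the replicate number as a block 801 genes and the same 4 factors were called. The numbers name technical libraries, and deviations of same-numbered libraries from their genotype mean correlated at 0.0475. With 2 libraries per genotype this value is the same for either number by construction. The libraries were not taken as pairs. Voom on recovered reads called 811 genes and the same 4 factors. Depth limits *Mafa*, with 19 to 62 reads, the most.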
